A study of Mus musculus with 6 samples.

Results

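The genes described here are 34 genes of DNA repair and of the DNA damage checkpoint, chosen by name: a row of the deposited gene count table belonged to the set when its symbol was one of the listed 34. This list and the other gene lists below were chosen with earlier results of these data known. All 34 were found among the 21240 genes of the table, and all 34 were among the 11080 genes tested. They cover the BRCA complexes, the strand exchange factors (Rad51c, Xrcc2, Xrcc3, Rad54l and Rad54b), the Fanconi anaemia pathway, the enzymes that resect DNA ends and cut junctions, mismatch repair, base excision repair, the checkpoint kinases with their mediators, and post-replication repair.

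A chromosome break or a stalled replication fork is mended without loss of sequence by homologous recombination, which resects the broken ends and copies the intact sister chromatid. The Fanconi anaemia pathway unhooks crosslinks that block forks and hands the resulting break to recombination. The kinases ATM and ATR signal the damage through CHEK2 and CHEK1 and hold the cell cycle. Recombination is used mainly in S and G2 phase, when a sister chromatid is present, and many of its genes are transcribed with the replication genes in cycling cells. Several of these genes are tumour suppressors of the mammary epithelium.

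RNA was measured in NMuMG cells, an epithelial line from normal mouse mammary gland, in 3 groups of 2 biological replicates. All cells were first kept for 6 h without serum and insulin. Serum was left out from then on. Vehicle was given for 2 h to the control cells, and 5 ng/ml of TGFβ1 to the other cells, either for 2 h or for 12 h. TGFβ1 is a cytokine known to arrest the growth of many epithelial cells. The 12 h cells were thus 18 h without serum and the vehicle and 2 h cells 8 h, and no vehicle group was kept for 12 h, so that at 12 h the cytokine and the longer time without serum cannot be told apart. All groups are of this 1 line.

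The 6 libraries held 14705886 to 23786993 counts. The 9 TGFβ response genes used as a check of the labels (Smad7 among them) were called higher in 9 of 9 at both times. They were chosen with earlier results of these data known, so this is not an independent check. Of 10 epithelial markers, 5 passed the filter on low values: Krt8, Krt18, Krt19 and Cdh1 were among them, whereas Epcam, Cldn3, Cldn7 and Esrp1 did not pass it. At 12 h 3 of the 5 were called higher than vehicle and Krt19 was called lower, with a log2FC of -1.95. The summed epithelial markers ran from 4961 to 5780 CPM (counts scaled to a library's size) in vehicle, from 6440 to 6475 at 2 h and from 10320 to 10367 at 12 h. Summed markers of other cell types were low but moved at 12 h: fibroblast markers went from 3.57 to 5.24 CPM in vehicle to 14.8 to 16.6 CPM, mostly Col1a1, endothelial markers from 0.412 to 0.446 CPM to 1.96 to 2.21 CPM, and immune markers, mostly Cd14, from 157 to 162 CPM to 107 to 118 CPM. Adipocyte markers were at most 0.303 CPM in any library. The part of these markers in the results was not tested.

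Replicate 2 stood apart from replicate 1 for these genes in both short groups. CPM are given after TMM scaling of the library sizes. Replicate 2 was the higher library for 32 of 34 genes in vehicle and for 32 of 34 at 2 h, with median log2 differences of 0.63 and 0.57, but for 15 of 34 at 12 h, where the median was -0.08. Over all genes tested the same medians were 0.00, 0.01 and 0.03. The summed level of the 34 genes was 879 and 1181 CPM in the vehicle libraries, 743 and 975 CPM at 2 h, and 593 and 592 CPM at 12 h. Fixed lists of replication fork and mitosis genes moved the same way between the libraries: the mitosis genes summed to 1841 and 3716 CPM in vehicle, to 1868 and 3480 CPM at 2 h, and to 162 and 159 CPM at 12 h. The part of these differences in the results below was not tested. Calls against vehicle that were lost when 1 library was left out are named below, mostly without the changed value.

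**Figure D1:**
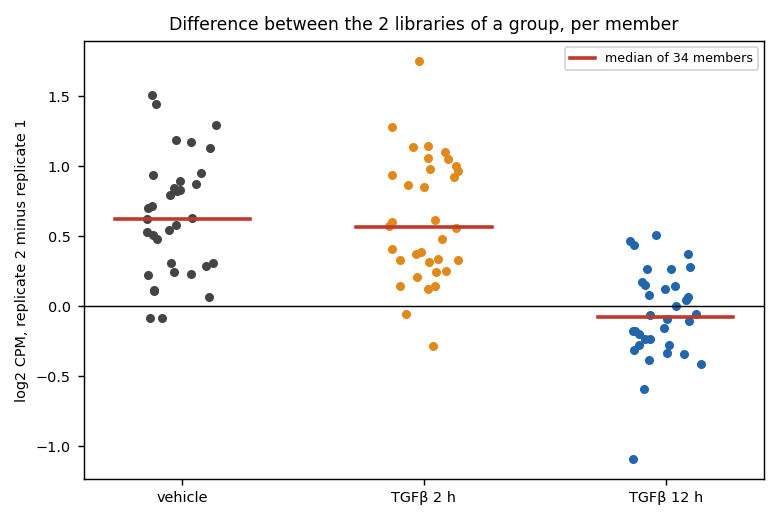
Difference between the libraries of each group for the 34 genes, as the log2 CPM of replicate 2 minus that of replicate 1 (y axis), with 1 point per gene and a red line at the median. The points lie mostly above 0 in vehicle (median 0.63) and at TGFβ 2 h (median 0.57) and around 0 at TGFβ 12 h (median -0.08).

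After 12 h of TGFβ, 24 of the 34 genes were called lower than in vehicle and 0 higher at an adjusted p under 0.05, in edgeR with p-values adjusted over all genes tested. The background was 21.5% of all tested genes called lower and 21.8% called higher. No gene of the set was higher at an unadjusted p under 0.05 (0 of 34), and 0 were called higher by DESeq2 or limma-voom. The median log2 fold change (log2FC) of the 34 was -1.24, against 0.02 over all tested genes, and the values ran from -7.09 for Neil3 to 0.06 for Mus81. For 32 of the 34, both 12 h libraries lay below both vehicle libraries, an order found in 37.2% of all tested genes. A fall of more than 1 on the log2 scale together with the adjusted p was met by 20 genes, against 11.6% of all tested genes. In bulk RNA, fewer cells expressing a gene and less RNA per cell cannot be told apart.

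At 2 h few of the genes were called. Brca1, Atm and Atr were called lower and 0 of the 34 were called higher by edgeR, DESeq2 or limma-voom, against a background of 5.25% of all tested genes lower and 9.91% higher. The median log2FC was -0.28, against -0.01 over all tested genes. Values of 31 of the 34 were below 0, against 51.1% of all tested genes. The shift depended on the library left out, and leaving out 1 library unbalances the replicate numbers, of which number 2 was the higher in both groups: without vehicle replicate 2 the median was 0.12 with 11 of 34 below 0, and without 2 h replicate 1 it was 0.03 with 15 of 34 below 0, whereas it was -0.55 without vehicle replicate 1 and -0.62 without 2 h replicate 2. With all libraries the values ran from -1.14 for Ung to 0.08 for Mus81. Ung was not called (adjusted p = 0.167, edgeR), but was called with the replicate number as a block in the fit (log2FC -1.15, adjusted p = 0.0456). With 1 library left out its value ran from -1.87 to -0.67. Both 2 h libraries lay below both vehicle libraries for 11 genes: Brca1, Brca2, Rad51c, Xrcc3, Rad54b, Fancg, Fancm, Pms2, Ung, Atm and Atr. That order was found in 27.5% of all tested genes. None of the 34 genes was higher at an unadjusted p under 0.05.

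**Figure D2:**
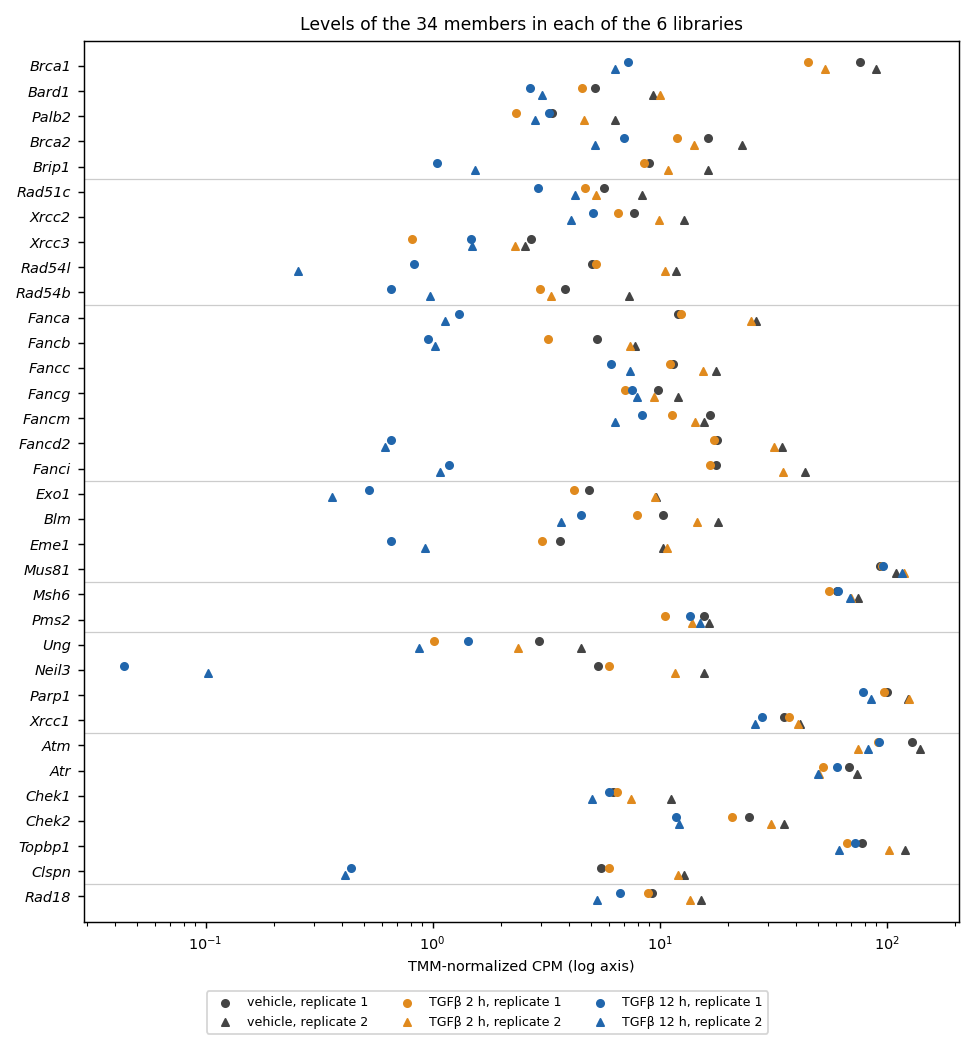
Levels of the 34 genes in each of the 6 libraries, in TMM-normalized CPM on a log axis, grouped by role from top to bottom. Circles are replicate 1 and triangles replicate 2, in grey for vehicle, orange for TGFβ 2 h and blue for TGFβ 12 h. The blue points lie to the left of both grey points for 32 genes, and Mus81 and Msh6 are the exceptions.

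The BRCA complexes held the gene with the smallest adjusted p of the set. Brca1, a ubiquitin ligase that steers breaks towards recombination (chr11:101350078-101413269 on the minus strand, build NCBIM37), was at 76.5 and 89.5 CPM in vehicle, at 45.1 and 53.8 CPM at 2 h, and at 7.23 and 6.36 CPM at 12 h. The 3 groups did not overlap and fell in the order of time. At 2 h the log2FC was -0.75 (adjusted p = 0.0166, edgeR), and at 12 h it was -3.61 with an SE of 0.16 (adjusted p = 3.68e-05), a 12.2-fold lower level. Brca1 was the only one of the 34 genes called in all 3 comparisons.

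Brip1, the helicase that binds BRCA1, was at 9.00 and 16.4 CPM in vehicle, 8.54 and 10.9 CPM at 2 h, and 1.04 and 1.54 CPM at 12 h. Both 12 h libraries were far below the other 4, with a log2FC at 12 h of -3.30 (SE 0.379, adjusted p = 0.000762, edgeR). Brca2, a tumour suppressor needed for recombination, was at 16.4 and 23.0 CPM in vehicle, 11.9 and 14.1 CPM at 2 h, and 6.97 and 5.18 CPM at 12 h. Its groups also fell stepwise without overlap, and the 12 h value was -1.69 (SE 0.243, adjusted p = 0.00194). Bard1, the partner of BRCA1 in the ligase, lay at 5.18 and 9.36 CPM in vehicle and at 2.70 and 3.03 CPM at 12 h, and its log2FC of -1.34 was not called (adjusted p = 0.0511), but was called by DESeq2 (adjusted p = 0.0181). Palb2, the bridge between BRCA1 and BRCA2, had a log2FC of -0.67 (adjusted p = 0.252) from levels of 2.33 to 6.37 CPM over all libraries. In all, 3 of these 5 genes were called lower at 12 h.

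Among the strand exchange factors, 4 of 5 were called lower at 12 h. The motor proteins RAD54L and RAD54B help DNA strands to exchange, and their genes changed most. Rad54l was at 5.06 and 11.8 CPM in vehicle, 5.26 and 10.5 CPM at 2 h, and 0.827 and 0.257 CPM at 12 h (log2FC at 12 h -3.90, SE 0.680, adjusted p = 0.00424, edgeR). Rad54b was at 3.82 and 7.32 CPM in vehicle, 2.98 and 3.33 CPM at 2 h, and 0.653 and 0.975 CPM at 12 h (log2FC -2.77, SE 0.412, adjusted p = 0.00225). Both motor genes were lower in both 12 h libraries than in any other library. Rad51c, Xrcc2 and Xrcc3, whose products assist recombination in shared complexes, moved less. Xrcc2 was at 7.71 and 12.9 CPM in vehicle, 6.57 and 9.93 CPM at 2 h, and 5.09 and 4.05 CPM at 12 h (log2FC -1.16, adjusted p = 0.0278). For Rad51c the log2FC was -0.97 (adjusted p = 0.0334), and for Xrcc3, the lowest of the 5 in vehicle and at 0.809 to 2.71 CPM over all libraries, it was -0.82 (adjusted p = 0.202). Without vehicle replicate 2, and without either 12 h library, Rad51c and Xrcc2 were no longer called.

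The Fanconi anaemia genes had 6 of 7 members called lower at 12 h, with a median log2FC of -2.72. FANCD2 and FANCI form the clamp that is ubiquitinated at a crosslink. Fancd2 (chr6:113481676-113547011, plus strand, NCBIM37) was at 17.9 and 34.6 CPM in vehicle, 17.3 and 31.9 CPM at 2 h, and 0.653 and 0.616 CPM at 12 h. Replicate 2 was the higher library in both short groups, and both 12 h libraries were far below all 4 of these. The log2FC at 12 h was -5.35 (SE 0.514, adjusted p = 0.000372, edgeR), or 40.8-fold lower. Fanci was at 17.7 and 43.8 CPM in vehicle, 16.7 and 35.1 CPM at 2 h, and 1.18 and 1.08 CPM at 12 h, with a log2FC of -4.76 (SE 0.610, adjusted p = 0.00120).

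The core complex that ubiquitinates this clamp is anchored on DNA by FANCM. Fanca was at 12.0 and 26.5 CPM in vehicle, 12.5 and 25.3 CPM at 2 h, and 1.31 and 1.13 CPM at 12 h (log2FC at 12 h -3.97, SE 0.540, adjusted p = 0.00155, edgeR). Fancb was at 5.29 and 7.83 CPM in vehicle, 3.24 and 7.41 CPM at 2 h, and 0.958 and 1.03 CPM at 12 h (log2FC -2.72, SE 0.468, adjusted p = 0.00404). These core subunits were lower in both 12 h libraries than in any other. Fancm, the gene of this translocase, was at 16.6 and 15.7 CPM in vehicle, 11.4 and 14.4 CPM at 2 h, and 8.36 and 6.36 CPM at 12 h (log2FC -1.13, SE 0.204, adjusted p = 0.00487). Fancc was at 11.4 and 17.7 CPM in vehicle, 11.1 and 15.5 CPM at 2 h, and 6.14 and 7.44 CPM at 12 h (log2FC -1.10, adjusted p = 0.0187). Fancc was not called without vehicle replicate 2 or without either 12 h library. Fancg was the member not called, with a log2FC of -0.49 (adjusted p = 0.104) between 9.82 and 12.0 CPM in vehicle and 7.58 and 7.95 CPM at 12 h.

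The nucleases and helicases of end resection and junction processing had 3 of 4 members called lower. Exo1, an exonuclease that resects ends, was at 4.88 and 9.68 CPM in vehicle, 4.20 and 9.58 CPM at 2 h, and 0.522 and 0.359 CPM at 12 h (log2FC at 12 h -4.01, SE 0.604, adjusted p = 0.00236, edgeR). Blm, the helicase lost in Bloom syndrome, was at 10.4 and 18.1 CPM in vehicle, 7.94 and 14.6 CPM at 2 h, and 4.53 and 3.69 CPM at 12 h (log2FC -1.79, SE 0.386, adjusted p = 0.0101). The 12 h libraries of both genes lay below all other libraries, and Blm was not called without either 12 h library.

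The nuclease MUS81 works as a dimer with EME1, and the genes of the dimer differed. Eme1 was at 3.65 and 10.4 CPM in vehicle, 3.03 and 10.8 CPM at 2 h, and 0.653 and 0.924 CPM at 12 h (log2FC at 12 h -3.15, SE 0.797, adjusted p = 0.0185, edgeR). It was not called by limma-voom or without vehicle replicate 2 or either 12 h library. Mus81 (chr19:5482345-5488402, minus strand, NCBIM37) was at 93.3 and 111 CPM in vehicle, 95.9 and 120 CPM at 2 h, and 96.2 and 117 CPM at 12 h, and the 3 groups overlapped. Its log2FC was 0.06 at 12 h (SE 0.163, adjusted p = 0.777) and was -0.07 without TMM scaling.

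Neither mismatch repair gene was called at any time. Msh6, part of the sensor of mispaired bases, was at 60.4 and 75.1 CPM in vehicle, 55.6 and 69.9 CPM at 2 h, and 61.1 and 68.9 CPM at 12 h, with overlapping groups and a 12 h log2FC of -0.06 (SE 0.162, adjusted p = 0.796, edgeR). Its sign changed when single libraries were left out. Pms2, the endonuclease subunit, had a log2FC of -0.17 (adjusted p = 0.486) from 15.7 and 16.5 CPM in vehicle to 13.6 and 15.1 CPM at 12 h. In the GENCODE models, 410 of its 8442 exon bases are shared on the same strand with Rsph10b2. The counts were made on UCSC models, and whether such an overlap affects them was not tested.

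Of the genes of base excision and single-strand break repair, 3 of 4 were called lower at 12 h. Neil3, a glycosylase that removes oxidised bases and acts at crosslinks (chr8:54672221-54724419, minus strand, NCBIM37), was at 5.35 and 15.7 CPM in vehicle and 5.97 and 11.7 CPM at 2 h. At 12 h it was at 0.0435 and 0.103 CPM, which were 1 and 2 counts. Against 338 counts in the vehicle libraries together, these 3 counts were 146-fold lower after scaling for depth, with a 95% interval of 49.6 to 713 that covers counting error only. The fitted log2FC of -7.09 (SE 0.911, adjusted p = 0.00121, edgeR) depends on the prior count at so low a level.

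Ung, which removes uracil from DNA, was at 2.94 and 4.52 CPM in vehicle, 1.01 and 2.37 CPM at 2 h, and 1.44 and 0.872 CPM at 12 h. The libraries at both TGFβ times lay below vehicle and overlapped each other, and the 12 h log2FC was -1.67 (SE 0.487, adjusted p = 0.0313, edgeR). Xrcc1, the scaffold of single-strand break repair, fell less, with a log2FC of -0.49 (SE 0.129, adjusted p = 0.0213) from 35.3 and 41.6 CPM in vehicle to 28.2 and 26.4 CPM at 12 h. Ung and Xrcc1 were not called without vehicle replicate 2 or without either 12 h library. Parp1, the sensor of strand breaks and in vehicle the most abundant of the 34 per kilobase of exon, had a log2FC of -0.45 (adjusted p = 0.0654) from 100 and 124 CPM to 78.5 and 85.7 CPM, and was called by DESeq2 (adjusted p = 0.0343).

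Of the checkpoint genes, 4 of 6 were called lower at 12 h, with a median log2FC of -0.64: Atm and Atr, which were also called at 2 h, and Chek2 and Clspn. Atm, the kinase that signals double-strand breaks (chr9:53247254-53344845, minus strand, NCBIM37), was at 129 and 140 CPM in vehicle, 91.5 and 75.1 CPM at 2 h, and 92.2 and 82.8 CPM at 12 h. Both TGFβ groups lay below vehicle and overlapped each other, with a log2FC of -0.69 at 2 h (SE 0.131, adjusted p = 0.0170, edgeR) and -0.62 at 12 h (SE 0.130, adjusted p = 0.00928). Atr, the kinase of stalled forks, was at 68.5 and 74.2 CPM in vehicle, 52.3 and 50.4 CPM at 2 h, and 60.3 and 49.9 CPM at 12 h. It had the same order of groups, with a log2FC of -0.48 at 2 h (adjusted p = 0.0481) and -0.37 at 12 h (adjusted p = 0.0487), both close to the threshold.

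The early calls rest on few libraries. At 2 h the Brca1 call was lost without vehicle replicate 2. Those of Atm and Atr were lost without either vehicle library, without either 12 h library, which sets the shared spread, and when the vehicle and 2 h libraries were fitted alone, and Atr was also lost without either 2 h library and with no filter on low counts. At 12 h Atm and Atr were not called without vehicle replicate 2 or without 12 h replicate 2, and Atr also not without vehicle replicate 1 or with no filter. The sign stayed negative for all 3 genes at both times.

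Clspn, the mediator through which ATR activates CHEK1, was at 5.53 and 12.8 CPM in vehicle, 5.97 and 12.0 CPM at 2 h, and 0.435 and 0.410 CPM at 12 h (log2FC at 12 h -4.41, SE 0.611, adjusted p = 0.00168, edgeR). The 12 h libraries were far below the other 4. Chek2, the effector kinase of ATM, was at 24.7 and 35.2 CPM in vehicle, 20.9 and 30.9 CPM at 2 h, and 11.8 and 12.2 CPM at 12 h, again with the 12 h libraries lowest (log2FC -1.32, SE 0.247, adjusted p = 0.00564). Chek1, the effector kinase of ATR, was at 6.24 and 11.3 CPM in vehicle, 6.47 and 7.51 CPM at 2 h, and 5.96 and 5.03 CPM at 12 h, and its log2FC of -0.67 was not called (adjusted p = 0.122). Topbp1, an activator of ATR, was at 77.7 and 120 CPM in vehicle, 66.7 and 103 CPM at 2 h, and 72.7 and 61.8 CPM at 12 h, with a log2FC of -0.56 (adjusted p = 0.138). For Chek1 and Topbp1 vehicle replicate 2 was the highest of the 6 libraries, and vehicle replicate 1 lay close to the 12 h libraries. Without vehicle replicate 1 the 12 h log2FC was -1.03 for Chek1 and -0.84 for Topbp1. Without vehicle replicate 2 it was -0.18 for Chek1 and -0.21 for Topbp1.

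Rad18, the ubiquitin ligase that modifies PCNA for post-replication repair, was at 9.24 and 15.2 CPM in vehicle, 8.85 and 13.6 CPM at 2 h, and 6.70 and 5.28 CPM at 12 h. The 12 h libraries were the lowest, and the log2FC of -1.02 was called (SE 0.321, adjusted p = 0.0405, edgeR), but not by limma-voom and not without vehicle replicate 2 or either 12 h library.

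**Figure D3:**
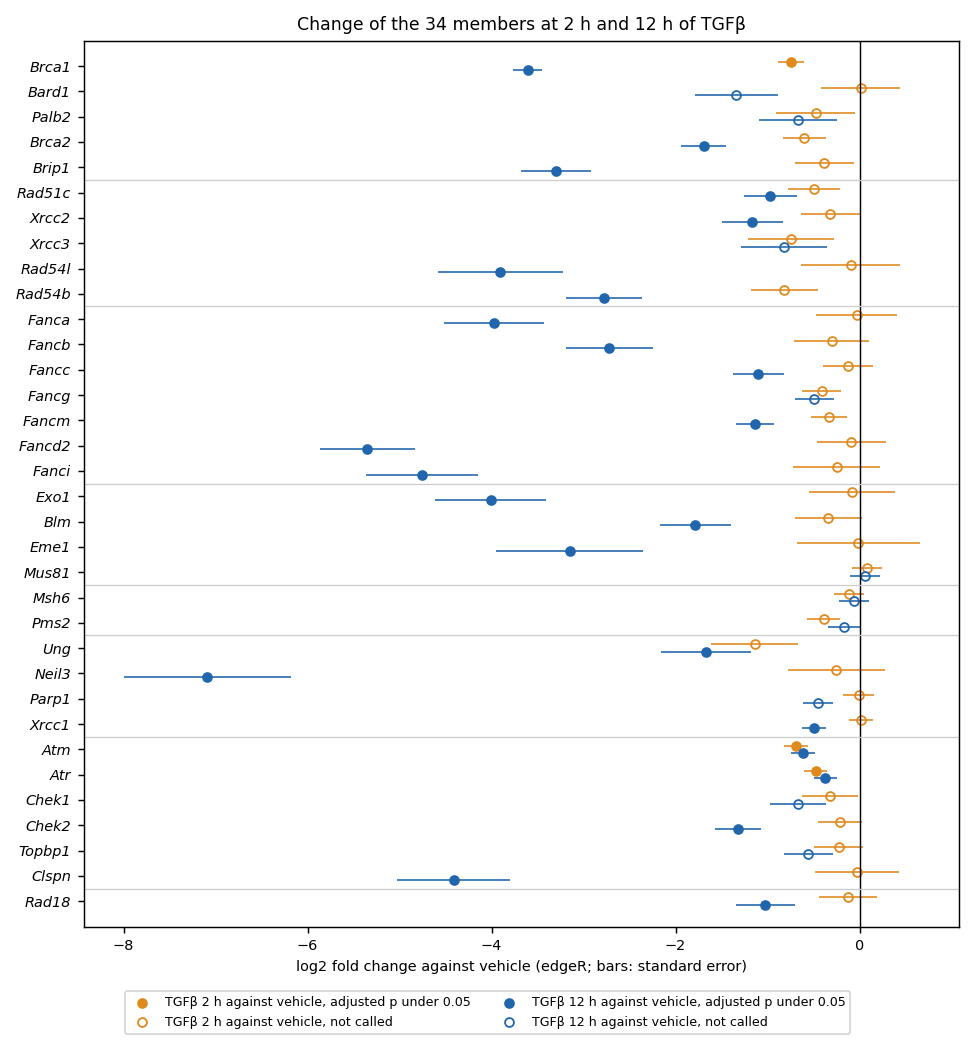
Fitted log2 fold changes against vehicle (edgeR) of the 34 genes at TGFβ 2 h (orange) and TGFβ 12 h (blue), grouped by role, with bars of 1 SE. The 12 h values reach from -7.09 (Neil3) to 0.06 (Mus81) and the 2 h values from -1.14 (Ung) to 0.08 (Mus81), with filled points for calls at an adjusted p under 0.05.

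Leaving out single libraries changed the number of calls, among the 34 genes and among all genes. The number of the 34 genes called lower was 24 with all libraries, 15 without vehicle replicate 2, 16 without 12 h replicate 1 and 14 without 12 h replicate 2, and the number that also had a log2FC below -1 went from 20 to 13 without 12 h replicate 2. Over all tested genes the share called lower went from 21.5% to 15.9%, 13.6% and 14.1% in the same 3 settings. Of the 24, 14 were called under each of the 14 other settings in which they were tested: Brca1, Brca2, Brip1, Rad54l, Rad54b, Fanca, Fancb, Fancm, Fancd2, Fanci, Exo1, Neil3, Chek2 and Clspn. A filter of at least 10 counts in every library removed the ones with the lowest 12 h counts among them from the test, Rad54l, Exo1, Neil3 and Clspn. Fold changes also moved with 1 library left out. The 12 h log2FC then ran from -4.90 to -3.69 for Clspn, from -5.02 to -3.17 for Rad54l and from -5.27 to -3.96 for Fanci.

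The 12 h libraries were also compared directly with the 2 h libraries. In this comparison of 12 h with 2 h, 18 of the 34 genes were called lower and 0 higher, against 18.9% lower and 15.2% higher among all tested genes, and 15 of the 18 had a log2FC below -1, against 9.87% of all tested genes. No gene of the set was higher at an unadjusted p under 0.05 (0 of 34), and DESeq2 and limma-voom called 0 higher. The median was -0.94, against 0.01 over all tested genes, and the values ran from -6.84 for Neil3 to 0.22 for Pms2, which was not called. This comparison shares its 12 h libraries with the one against vehicle. The count was 10 without 12 h replicate 1, 8 without 12 h replicate 2 and 13 without 2 h replicate 2, and the count below -1 was 10 and 8 without 12 h replicates 1 and 2. Over all tested genes the share called lower was 9.31%, 9.93% and 17.9% in these 3 settings. Called at 12 h against vehicle but not against 2 h were Rad51c, Xrcc2, Ung, Atm, Atr and Rad18.

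Per kilobase of exon, the most abundant genes of the set in vehicle were Parp1 at 29.2 and Mus81 at 28.6 CPM per kb, followed by Topbp1 at 18.9, Xrcc1 at 17.8 and Msh6 at 15.9 CPM per kb. None of these 5 fell by more than 1 on the log2 scale at 12 h. Brca1 stood at 9.80 CPM per kb, Fanci at 5.33 and Fancd2 at 3.30, and Palb2 was the lowest at 0.896 CPM per kb. At 12 h Brca1 was at 0.802 and Fancd2 at 0.0799 CPM per kb, while Mus81 was at 29.9 CPM per kb. Across the 34 genes the log2 difference between the 2 h libraries (replicate 2 minus replicate 1) ran opposite to the log2FC at 12 h, with Pearson's r = -0.49 and Spearman's rho = -0.53. These are values across genes that share the same libraries, in which the 12 h fit also used the 2 h libraries for its spread, and they are given as a description.

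The promoters of the genes were read for the letters of factors that act in the cell cycle or downstream of TGFβ. RefSeq promoters (GRCm38.p6, 250 bases before to 50 after the start) were matched for 30 of the 34 genes, and Exo1, Fancd2, Rad54b and Xrcc2 were not matched. The letters of the E2F motif, searched on both strands as TTTCCCGC, TTTCGCGC, TTTGCCGC or TTTGGCGC, were held by 8 of the 30 genes (26.67%), against 4.956% of 8716 tested genes with a promoter and 2.605% of all 27025. E2F factors drive genes of S phase. Of the 24 genes called lower at 12 h, 20 had a matched promoter, and 4 of these held the letters, Brca2, Chek2, Clspn and Rad51c. Of the 10 genes not called, all with a promoter, 4 held them, Bard1, Fancg, Msh6 and Topbp1. The stretches around the matches are shown because they are held by Clspn, which was 21.3-fold lower at 12 h, and also by genes that were not called. Capitals mark the motif on the strand of the gene, which is read 5′ to 3′, so that a match on the opposite strand appears as its reverse complement. The stretches lie at chr5:150522427-150522486 (plus strand) for Brca2, chr5:110839805-110839864 (plus) for Chek2, chr4:126556990-126557019 (plus) for Clspn, chr11:87404477-87404506 and, at another start site, chr11:87404941-87404970 (minus) for Rad51c, chr1:71103148-71103207 (minus) for Bard1, chr4:43010320-43010379 (minus) for Fancg, chr17:87975054-87975083 (plus) for Msh6 and chr9:103305172-103305231 (plus) for Topbp1.
Brca2: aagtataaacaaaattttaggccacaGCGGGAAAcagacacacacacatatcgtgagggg
Chek2: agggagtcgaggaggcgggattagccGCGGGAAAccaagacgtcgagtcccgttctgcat
Clspn: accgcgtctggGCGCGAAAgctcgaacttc
Rad51c: gtttccagcgcTTTCGCGCctcttgctcta
Rad51c, other start: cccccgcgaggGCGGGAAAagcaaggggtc
Bard1: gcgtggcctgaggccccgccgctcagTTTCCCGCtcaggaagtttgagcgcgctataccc
Fancg: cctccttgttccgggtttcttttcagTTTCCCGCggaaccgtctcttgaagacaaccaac
Msh6: ctcctcccgacTTTCCCGCcagcggcggcc
Topbp1: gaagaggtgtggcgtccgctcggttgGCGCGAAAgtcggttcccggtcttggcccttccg

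The other motifs were searched in the same way. The NF-Y letters CCAAT were held by 16 of the 30 genes (53.33%), against 43.46% of tested genes, among them Brca1, Brip1, Fanca, Clspn and Atm. The SMAD letters CAGAC were held by 16 (53.33%), against 51.79%. The CHR letters TTTGAA, found in promoters of mitosis genes, were held by Bard1 and Eme1 (6.667%), against 13.83%. The AP-1 letters TGANTCA were held by 0 of 30, against 6.287% of tested genes. A match is a run of letters and not a measured binding site, and no test was made of these shares.

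Other genes of the same pathways, taken from lists that hold none of the 34, were called in both directions at 12 h. Of 131 other repair genes tested in 8 lists, 33 were called lower (25.2%, against 21.5% of all tested genes) and 14 higher (10.7%, against 21.8%), and their median log2FC was -0.15. Homologous recombination had 13 of 35 lower and 1 higher: Rad51ap1, a gene of strand exchange, had -4.52, while the helicase gene Recql5 was at 0.32. Other Fanconi anaemia genes had 5 of 12 lower and 1 higher, with Ube2t, the enzyme that passes ubiquitin to the clamp, at -2.30, Cenpx at -1.20 and the core subunit gene Fance at 0.43. Of the other mismatch repair genes, 3 of 5 were called lower and 1 higher, with Pms1 at -0.67. The named values here and below are among the largest called changes in each direction.

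Differences between lists were not tested. The shares called higher among base excision (22.2%) and nucleotide excision genes (25%), and lower among nucleotide excision genes (20%), were near the 21.8% and 21.5% of all tested genes. Of 18 other base excision genes, 0 were lower in edgeR (0 also at an unadjusted p under 0.05 and by DESeq2 or limma-voom) and 4 were higher, led by Lig3 at 0.66 and Apex2 at 0.57. Nucleotide excision repair, which removes bulky lesions, had 4 of 20 lower (Ddb2 -1.12, Uvssa -0.56) and 5 higher (Ercc2 1.18, Ddb1 0.91). End joining had 2 of 13 lower (Polq -4.15, Nhej1 -0.60) and 2 higher (Rif1 1.48, Trp53bp1 0.38). Polq encodes the polymerase of theta end joining, and Rif1 and Trp53bp1 encode factors that restrain end resection. Of other checkpoint genes 3 of 17 were lower, with Cdc25c at -6.02 and Cdc25b at -3.51, phosphatases that release cells into mitosis, and of translesion genes other than Rad18 3 of 11, with Zranb3 at -1.78 and Rev3l at -0.63. By edgeR, DESeq2 or limma-voom 0 genes of either list were called higher, and at an unadjusted p under 0.05 in edgeR 1 other checkpoint gene and 0 translesion genes were.

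The replication fork genes had 22 of 39 called lower and 0 higher at 12 h (0 higher also at an unadjusted p under 0.05 and by the other tools), with a median of -1.04 and Tk1 at -5.02 and Mcm5 at -4.11. The mitosis genes had 28 of 28 called lower, with a median of -5.28, Nusap1 at -6.68 and Bub1 at -6.19. At 2 h 0 of 39 and 0 of 28 were called in either direction by edgeR, DESeq2 or limma-voom, and at an unadjusted p under 0.05 in edgeR 1 fork gene was higher and 1 mitosis gene lower.

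**Figure D4:**
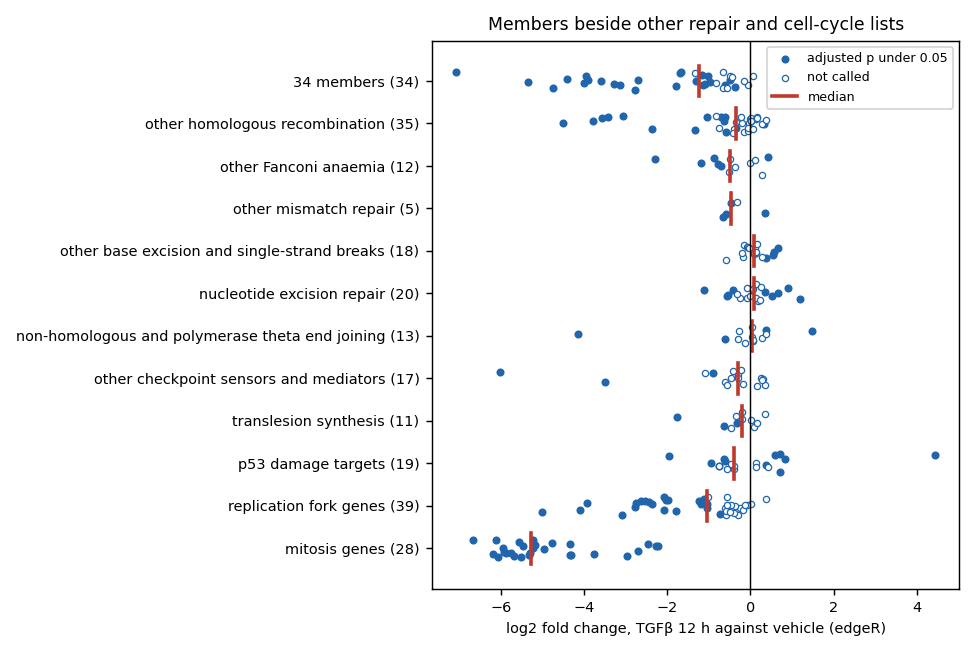
Fitted log2 fold changes at TGFβ 12 h against vehicle (edgeR) for the 34 genes, shown as members in the top row, and for other fixed lists, with the number tested in parentheses. Each point is a gene, filled when the adjusted p was under 0.05, and the red line is the median, which is -1.24 for the 34 genes, -1.04 for replication fork genes and -5.28 for mitosis genes.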

How the data were processed

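The authors sequenced stranded total RNA from 6 libraries as 50-base single-end reads, filtered the reads, aligned them to mm9 with subjunc of Subread, removed duplicates with SAMtools 0.1.19 and deposited raw counts per gene from featureCounts over exons of UCSC known genes, with miRNAs left out. Removing duplicates of single-end reads lowers the counts of abundant genes most. Groups came from the GEO labels, and no column of other samples was present.

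A gene was tested if 2 or more libraries reached 2 CPM. The counts were fitted with edgeR 4.0.16 (R 4.3.3) by the quasi-likelihood test with TMM factors (0.961 to 1.07), 1 mean per group, all 6 libraries, and Benjamini-Hochberg adjustment over the 11080 genes within each comparison. Common dispersion gave a biological coefficient of variation of 0.148. A call needs an adjusted p under 0.05. Alternatives were limma-voom (limma 3.58.1), DESeq2 1.42.0, its size factors, no TMM factors, another filter, no filter, a replicate block, fitting only the groups compared, and leaving out each library. The fit was tested on simulated counts for 12 h against vehicle (11080 genes, 200 changed). It called 0% of the genes given a log2 change of 0.5, 61.5% at a change of 1 and 96% at a change of 2. With them it called 1, 15 and 18 unchanged genes. In the data 2414 genes were called higher and 2385 lower at 12 h, many more than the 200 changed here. The adjustment depends on how many genes change, so the simulated shares do not give the power in the data. Xrcc1, for example, was called at -0.49.

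The members and all lists were chosen with earlier results of these data known. Every member is given its 12 h log2FC, and values in every library are given for members called with a change above 1 in any comparison and for all checkpoint genes. Of each other list, up to 2 called genes per direction with the largest 12 h change are named. Some genes that this rule names are not reported here. The replicates are labelled as biological. Gene positions and exon lengths came from GENCODE for NCBIM37 and promoters from RefSeq for GRCm38.p6, and the builds were not mixed.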

Additional observations from a re-analysis of the deposited data

Results flagged for a closer look

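For 18 of the 34 genes the level differed between the 2 h and 12 h groups by the direct test of 12 h against 2 h (adjusted p under 0.05, edgeR, over all genes tested), and each was lower at 12 h. The log2FC of 12 h against 2 h was -6.84 for Neil3, which had 3 counts at 12 h, -5.26 for Fancd2, -4.51 for Fanci, -4.39 for Clspn, -3.94 for Fanca, -3.93 for Exo1 and -3.81 for Rad54l. It was -3.14 for Eme1, -2.92 for Brip1, -2.86 for Brca1, -2.42 for Fancb and -1.96 for Rad54b. The smaller values were -1.45 for Blm, -1.11 for Chek2, -1.09 for Brca2, -0.97 for Fancc, -0.80 for Fancm and -0.51 for Xrcc1. Of the 18, 8 were called under each other setting in which they were tested, Brca1, Brip1, Fanca, Fancd2, Fanci, Exo1, Neil3 and Clspn. The time in TGFβ and the time without serum both differ between these groups and cannot be told apart. Groups of 2 libraries are too small for a check of single outlying libraries.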

How the results depend on the processing

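Of 804 values recomputed under other settings (at 12 h against vehicle all 34 genes, otherwise the called genes and the extremes), 703 kept their direction and side of the threshold, 70 lost the call, 23 gained it and 8 changed sign. With 12 h against vehicle, leaving out 1 library gave 14 to 28 genes called lower and 13 to 23 with a log2FC below -1. With 12 h against 2 h it gave 8 to 22 and 8 to 19, and with 2 h against vehicle 0 to 3, where fitting only the vehicle and 2 h libraries gave 1. Among these, the values that changed sign were near 0: Mus81 had -0.0275 at 2 h and -0.0657 at 12 h without TMM factors, and without 1 library it ran from -0.0877 to 0.22 at 2 h and from -0.10 to 0.19 at 12 h, and Msh6 from -0.21 to 0.11 at 12 h. Over all 34 genes at 2 h, 20 changed sign without vehicle replicate 2 and 16 without 2 h replicate 1, and at 12 h against vehicle at most 1 did under any setting. For 12 h against 2 h, 7 changed sign without 2 h replicate 2. The cause was not tested. Without TMM factors the median of all tested genes was -0.12 at 2 h and -0.11 at 12 h, where the 34 genes had -0.38 and -1.37, and all genes called higher and lower became 854 and 974 at 2 h and 1831 and 3045 at 12 h, against 1098 and 582, and 2414 and 2385, with TMM.

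With the replicate number as a block, 5 genes were called lower at 2 h, 28 at 12 h and 22 for 12 h against 2 h, and 20 and 16 had a log2FC below -1, where 12.7%, 27.5% and 25.2% of all tested genes were called lower. The median at 2 h was then -0.26, with 32 of 34 below 0, and Ung was among the genes called at 2 h. The calls gained at 12 h were Bard1, Fancg, Parp1 and Topbp1, and Bard1, Parp1 and Topbp1 were also gained with only the vehicle and 12 h libraries fitted. The labels give only shared numbers. Deviations of same-numbered libraries correlated at 0.708 for vehicle with TGFβ 2 h, at 0.263 for vehicle with TGFβ 12 h and at 0.392 for the TGFβ groups, with 2 pairs each. Genes near the filter of 2 CPM rest on few counts, and 2 libraries a group limit every test.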

Other observations

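Of 19 tested targets of p53 that answer DNA damage, 6 were called higher at 12 h (31.6%, against 21.8% of all tested genes) and 5 lower (26.3%, against 21.5%) in edgeR, shares not tested against the background, with a median log2FC of -0.39. Gadd45a, a stress-induced gene, was at 11.7 and 10.00 CPM in vehicle, 97.4 and 89.1 CPM at 2 h, and 264 and 213 CPM at 12 h, with a log2FC of 4.45, and Aen followed at 0.82. Cdkn1a, the cyclin-dependent kinase inhibitor of this pathway, was at 64.1 and 68.4 CPM in vehicle and at 99.3 and 79.6 CPM at 12 h and was not called by edgeR (log2FC 0.43, adjusted p = 0.0556) or limma-voom (0.0615), but was called by DESeq2 (0.0436). Fas, a death receptor gene, had a log2FC of -1.97 at 12 h and Btg2, an antiproliferative gene, -0.95. By limma-voom Btg2 was not called (adjusted p = 0.0515). At 2 h 5 of the 19 targets were called lower in edgeR (26.3%, against 5.25% of all tested genes). Another 2 were called higher (10.5%, against 9.91%). These shares were also not tested against the background.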
